A study of Mus musculus with 18 samples.

Results

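The transcription factors described here are the subunits of activator protein 1 (AP-1) and the related factor ATF3, named gene by gene: Fos, Fosb, Fosl1, Fosl2, Jun, Junb, Jund, Atf3 and Batf. All 9 were found by Ensembl identifier among the 30583 genes of the count table, and all 9 passed the filter on low counts that left 16311 genes for testing. AP-1 is a dimer of basic leucine zipper proteins: a Fos-family protein pairs with a Jun-family protein, Jun proteins can also pair among themselves, and the dimer binds short DNA elements in the promoters and enhancers of genes for growth, inflammation and matrix turnover. Several of these genes are immediate early genes, whose transcription starts without new protein synthesis when stress or growth signals reach existing factors such as CREB and the serum response factor. ATF3 and BATF belong to the same zipper class and can pair with Jun proteins; ATF3 is a stress-induced factor often described as a repressor, and BATF is best known from immune cells.

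The libraries are RNA-seq of poly(A) RNA from 12-week-old male C57BL/6JR mice whose left anterior descending coronary artery was tied to cause a myocardial infarction, with 3 mice killed at 10 min and 3 at each of 1, 6, 24 and 72 h, and from 3 sham-operated mice taken as 0 h. No sham mice were listed for the later times, so ligation and time since surgery cannot be told apart. All mice had sodium pentobarbital anaesthesia and isoflurane before killing, the controls included, and no genetic change is listed for any mouse. The series text gives 50 mg/kg of pentobarbital for all mice, whereas the labels of the ligated mice list doses from 50 to 63 mg/kg. The labelled doses rise in the order of the sample list, within groups as well as between them. The labels name cardiomyocytes as the cell type, but describe no cell separation, and the sampled material was myocardium of the infarcted left ventricle.

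The markers of other heart cells were present in every sham library: 6 macrophage markers summed to 266 to 306 CPM (counts scaled to a common library size) and 6 fibroblast markers to 593 to 616 CPM, beside 55600 to 60700 CPM for 7 cardiomyocyte markers. By 72 h the cardiomyocyte sum was 14600 to 19200 CPM, the macrophage sum 3110 to 4070 CPM and the fibroblast sum 5520 to 6690 CPM. In such whole tissue, fewer cells of a type and less RNA per cell cannot be told apart. The libraries held 18199172 to 25062351 counts. Levels below are CPM after trimmed-mean (TMM) scaling, given for replicates 1, 2 and 3 of a group in that order, and a call is an adjusted p under 0.05 from edgeR's quasi-likelihood test, with Benjamini-Hochberg adjustment over all 16311 genes. The labels number the 3 mice of each group. The p-values set differences between groups against the spread between mice, which edgeR estimates from all 18 libraries together and with help from other genes.

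The promoters of the 5 members that rose between 10 min and 1 h are shown first, because cyclic AMP response elements (bound by CREB and ATF proteins) and the AP-1 elements of Jun are the textbook entry points of early induction. Each line gives the 250 bases before the RefSeq start in GRCm38.p6, 5′ to 3′ on the gene's strand. Capitals mark TGACG or TGACGT, the core of a cyclic AMP response element, on either strand, and in Jun the AP-1-like elements TTACCTCA and TGACATCA.
Fos (chr12:85473640-85473889, plus strand): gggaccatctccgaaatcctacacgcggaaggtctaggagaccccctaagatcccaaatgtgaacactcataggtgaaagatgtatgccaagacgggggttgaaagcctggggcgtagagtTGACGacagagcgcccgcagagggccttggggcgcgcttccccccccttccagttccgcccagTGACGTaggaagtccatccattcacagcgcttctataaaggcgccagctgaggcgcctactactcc
Fosb (chr7:19310046-19310295, minus strand): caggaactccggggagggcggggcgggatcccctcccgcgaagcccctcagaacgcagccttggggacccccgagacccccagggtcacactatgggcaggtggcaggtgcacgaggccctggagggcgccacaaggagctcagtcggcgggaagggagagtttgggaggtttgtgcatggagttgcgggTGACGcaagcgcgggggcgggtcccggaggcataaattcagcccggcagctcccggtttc
Jun (chr4:95052223-95052472, minus strand): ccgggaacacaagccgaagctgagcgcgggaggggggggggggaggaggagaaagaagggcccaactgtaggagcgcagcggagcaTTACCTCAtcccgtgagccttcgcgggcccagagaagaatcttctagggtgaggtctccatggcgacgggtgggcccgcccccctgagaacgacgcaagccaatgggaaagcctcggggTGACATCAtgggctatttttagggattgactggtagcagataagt
Junb (chr8:84978749-84978998, minus strand): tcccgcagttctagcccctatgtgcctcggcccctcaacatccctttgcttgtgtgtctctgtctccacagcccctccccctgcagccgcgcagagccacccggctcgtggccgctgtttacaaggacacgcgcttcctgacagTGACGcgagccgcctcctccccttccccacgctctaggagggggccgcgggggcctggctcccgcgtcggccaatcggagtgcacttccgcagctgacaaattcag
Atf3 (chr1:191183334-191183583, minus strand): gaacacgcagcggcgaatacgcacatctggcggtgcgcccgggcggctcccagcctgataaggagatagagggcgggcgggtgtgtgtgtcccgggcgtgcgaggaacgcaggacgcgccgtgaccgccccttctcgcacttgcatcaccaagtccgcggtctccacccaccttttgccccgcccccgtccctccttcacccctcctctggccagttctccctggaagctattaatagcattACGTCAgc

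The Fos window held TGACGT from 66 to 61 bases before the start, TGACG from 129 to 125 bases before it, and a TATAAA box from 33 to 28 bases before it. Single TGACG matches stood 60 to 56 bases before the Fosb start and 106 to 102 bases before the Junb start. In Atf3, whose window lies inside the longer gene span of GENCODE, TGACGT stood on the opposite strand and ended 3 bases before the start. The Jun window held TTACCTCA from 164 to 157 and TGACATCA from 45 to 38 bases before the start. Of 32851 windows of this length in the RefSeq table, 17.8% held TGACG on either strand, 6.47% TGACGT, which contains TGACG, 2.93% TGACATCA, 0.728% TTACCTCA and 7.59% TATAAA on the gene's strand. These letters were searched after the windows had been seen, so the matches are a description. The Fos, Fosb, Jun, Junb and Atf3 windows were 58.4% to 68.8% G or C, where the median of all windows was 52.4%. The shares of all windows given here were not matched for this. The full palindrome TGACGTCA (1.55% of windows), the AP-1 element TGACTCA or TGAGTCA (4.46%) and the serum response CArG box (1.47%), each searched on both strands, were not in any of the 8 member windows of the table, which speaks only of these letters in this window. The other members with a window were Fosl2, Jund and Batf, of which Batf held TGACGT, from 98 to 93 bases before the start. The Fosl2 window lay inside the longer gene span of GENCODE, and that of Batf ran into it. The Jund window ended at chr8:70697738, before the GENCODE start at 70698949, so these windows do not all border the annotated gene. Fosl1 had no entry.

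After 1 h of ligation 6 of the 9 genes had risen, after 6 h all 9, after 24 h 8 and after 72 h 7, and none was called lower than sham at any time. At 10 min no member was called by edgeR, where 0.0736% of all genes were called in either direction. For 3 members, Fos, Fosb and Junb, the unadjusted p was under 0.05, as it was for 1144 of all 16311 genes. DESeq2 called 1 member, Fos. At 1 h the 6 risen members, Fos, Fosb, Jun, Junb, Jund and Atf3, stood against 0.294% of all genes called (0.288% higher), so that 6 of the 48 genes called at that time belonged to these 9. The background then widened, with 28.4% of genes called at 6 h (16.3% higher), 43.8% at 24 h (23.7% higher) and 66.4% at 72 h (34.2% higher). The share of members called at 72 h was thus close to that of genes in general, and all 7 of these members were higher. The median log2 fold change of the members was 0.51 at 10 min, 2.50 at 1 h, 3.23 at 6 h, 1.76 at 24 h and 1.80 at 72 h, where the median of all tested genes was between -0.01 and 0.03. Scaling to the library totals instead of TMM moved that median of all genes to -0.12, 0.20 and 0.61 at 6, 24 and 72 h and changed the split of all genes called from 2653 higher and 1986 lower to 1914 and 2802 at 6 h, from 3860 and 3289 to 5558 and 1805 at 24 h, and from 5572 and 5259 to 9472 and 2382 at 72 h. The direction of every called member value was the same under it. All 9 members also differed among the 6 groups in the test over all times, where 78.4% of genes did.

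**Figure D1:**
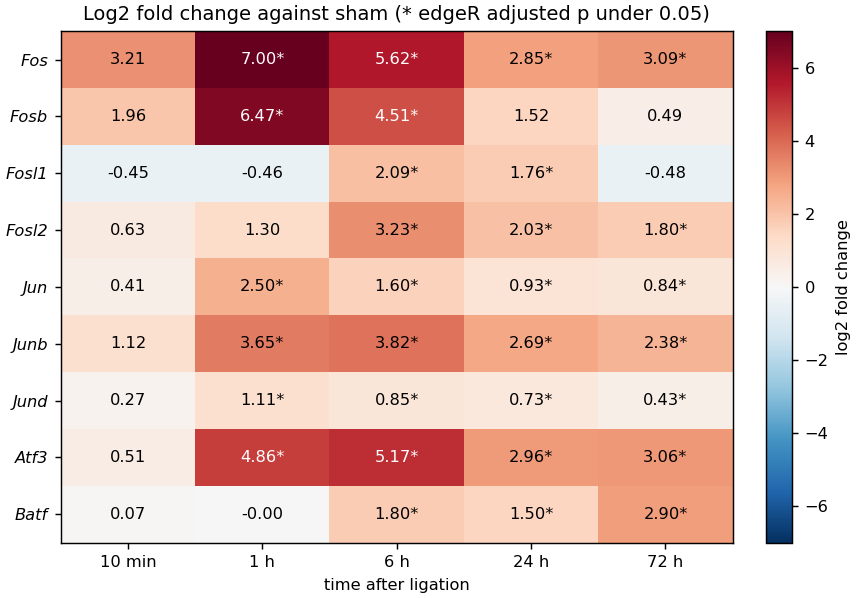
Log2 fold change of each of the 9 genes (lines) against sham at each time after ligation (columns), fitted by edgeR on 3 libraries a group; asterisks mark adjusted p under 0.05. Fos and Fosb have their highest values at 1 h (7.0 and 6.47), Atf3 and Junb at 6 h (5.17 and 3.82), and Batf at 72 h (2.90).

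Fos (ENSMUSG00000021250, chr12:85473890-85477273), the prototype partner of Jun in AP-1, was nearly silent in sham hearts, at 1.31, 2.18 and 1.64 CPM. It stood at 23.8, 10.5 and 13.5 CPM at 10 min, 204, 170 and 284 CPM at 1 h, and 159, 51.2 and 42.9 CPM at 6 h. It was at 8.16, 9.94 and 19.2 CPM at 24 h and at 11.5, 17.4 and 14.8 CPM at 72 h. Every ligated library was thus above every sham library, and the 1 h libraries lay above those of all other times. At 1 h Fos had risen 128-fold (7.0 ± 0.65 SE as log2, adjusted p = 0.000143 by edgeR). The 9.24-fold difference at 10 min did not pass edgeR's test (adjusted p = 0.167); it passed with DESeq2 (adjusted p = 6.04e-06), in a fit to those 2 groups alone (0.0301) and with limma on log2(FPKM + 0.1) (0.00827). Fos was still 7.20-fold above sham at 24 h (edgeR adjusted p = 0.00272) and 8.53-fold above it at 72 h (0.000584). The order of levels was 1 h, 6 h, 10 min, 72 h, 24 h and sham; the libraries at 10 min, 72 h and 24 h overlapped and these neighbours did not differ by edgeR's test, whereas the other neighbours were called apart, 6 h above 10 min included (14.5% of genes were called higher in that comparison). The fall of Fos from 1 h to 6 h (-1.38 as log2, adjusted p = 0.0466 by edgeR) rested on a call lost in 8 of 15 alternatives, among them leaving out any of the libraries 1 h replicate 1, 2 or 3 or 6 h replicate 2 or 3, with adjusted p of up to 0.15. Without 6 h replicate 1 the 6 h mean was 47.1 in place of 84.5 CPM.

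Fosb (ENSMUSG00000003545, chr7:19302696-19310051), a close paralogue of Fos, had a similar course. Its levels were 0.404, 1.97 and 1.20 CPM in sham, 5.85, 3.82 and 4.41 CPM at 10 min and 108, 77.9 and 132 CPM at 1 h. They were 54.8, 11.8 and 15.4 CPM at 6 h, 2.68, 2.51 and 5.26 CPM at 24 h and 1.80, 2.07 and 1.15 CPM at 72 h. The 1 h libraries stood above all others, and by 72 h the libraries overlapped those of sham. Fosb rose 88.9-fold at 1 h (6.47 ± 0.67 SE as log2, adjusted p = 0.000312 by edgeR) and was 22.8-fold above sham at 6 h (0.000305). At 24 h it missed the threshold (1.52 as log2, adjusted p = 0.108 by edgeR), although DESeq2 (0.0344) and limma on log2(FPKM + 0.1) (0.0185) called it, and at 72 h the difference was 0.49 (0.588). Fos was called above sham at both of these times; the difference between the genes was not tested. The order was 1 h, 6 h, 10 min, 24 h, 72 h and sham; 10 min and 24 h overlapped, as did 72 h and sham, and 24 h and 72 h did not pass the test despite separate libraries. Without 6 h replicate 1 the 6 h mean was 13.6 in place of 27.3 CPM.

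Fosl2 (ENSMUSG00000029135, chr5:32135801-32157842), which encodes the Fos-related antigen FRA2, was first called at 6 h. It was measured at 23.2, 21.2 and 27.1 CPM in sham, 39.2, 36.2 and 35.6 CPM at 10 min and 55.2, 62.7 and 58.3 CPM at 1 h. The 6 h libraries held 339, 172 and 162 CPM, those of 24 h 72.1, 63.4 and 157 CPM and those of 72 h 75.3, 94.1 and 79.7 CPM. Sham, 10 min, 1 h and 6 h formed a staircase without overlap between neighbours, but only the last step was called. At 1 h the log2 difference from sham was 1.30 ± 0.32 SE (adjusted p = 0.203 by edgeR), and both DESeq2 (0.0348) and the fit to those 2 groups (2.85e-07) called it. Fosl2 was up 9.40-fold at 6 h (3.23 ± 0.34 SE as log2, adjusted p = 1.78e-05 by edgeR), 4.08-fold at 24 h (0.000237) and 3.48-fold at 72 h (0.000172). The levels at 24 h and 72 h overlapped.

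Fosl1 (ENSMUSG00000024912, chr19:5447547-5455946), which encodes FRA1, was likewise not called before 6 h. Its libraries stood at 5.51, 5.03 and 4.18 CPM in sham, 3.67, 3.49 and 3.57 CPM at 10 min and 3.43, 3.43 and 3.85 CPM at 1 h. At 6 h they held 29.0, 15.2 and 18.5 CPM, at 24 h 9.88, 8.60 and 31.8 CPM, and at 72 h 2.59, 4.38 and 3.56 CPM. All 6 libraries of 6 h and 24 h exceeded the other 12. Fosl1 rose 4.25-fold at 6 h (2.09 ± 0.41 SE as log2, adjusted p = 0.00177 by edgeR) and 3.39-fold at 24 h (0.00301), and it fell by 2.24 on the log2 scale from 24 h to 72 h (edgeR adjusted p = 0.000326). Replicate 3 carried much of the 24 h mean, which was 9.24 without it and 16.7 CPM with it. At 72 h the difference from sham was -0.48 (edgeR adjusted p = 0.332; 0.0489 in the fit to those 2 groups), with a sign that turned to 0.11 under library total scaling. The 3′ exon of Fosl1 shares exonic bases with Ccdc85b on the other strand, which stood at 67.6 CPM in sham and 86.1 CPM at 6 h; whether the counting used strand is not given in the sources used here, so reads of the pair cannot be told apart.

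**Figure D2:**
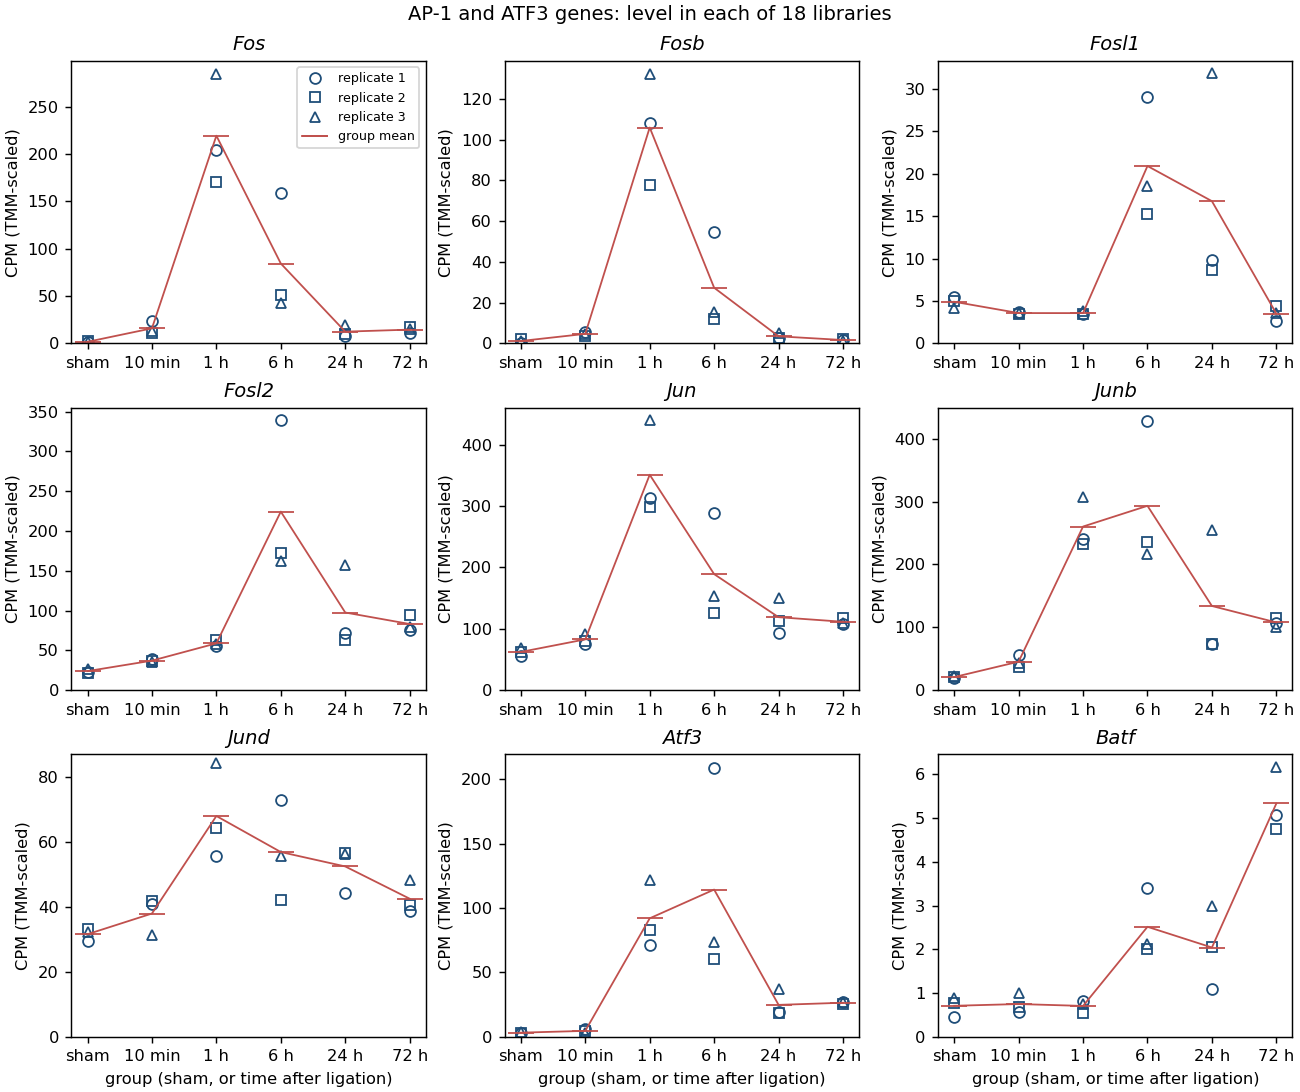
CPM of each of the 9 genes in every library (points; shapes give the replicate number) at sham and at each time after ligation, with the group mean (bars joined by a line) on linear axes that start at 0. Fos and Fosb stand highest at 1 h, Fosl1, Fosl2 and most of the other genes at 1 h or 6 h, and Batf at 72 h, with 3 libraries between 4.75 and 6.17 CPM.

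Among the Jun genes, which supply the partner in the dimer, Jun itself (ENSMUSG00000052684, chr4:95049034-95052222) was present in sham hearts, at 56.1, 61.5 and 68.9 CPM. It was at 75.8, 79.9 and 92.2 CPM at 10 min, 313, 299 and 441 CPM at 1 h and 288, 126 and 153 CPM at 6 h. Levels of 93.4, 113 and 150 CPM followed at 24 h and of 107, 118 and 109 CPM at 72 h. The 1 h libraries stood above all others and the sham libraries below all others. Jun rose 5.64-fold at 1 h (2.50 ± 0.26 SE as log2, adjusted p = 0.00017 by edgeR), was 3.03-fold above sham at 6 h (0.000378) and remained 1.79-fold above it at 72 h (0.00826). The call at 24 h, 1.91-fold (0.00781), was lost without 24 h replicate 3 (0.0527). From 1 h to 6 h Jun fell by 0.90 on the log2 scale (adjusted p = 0.0172 by edgeR); this call was lost in 5 of 15 alternatives, among them leaving out 1 h replicate 3 or 6 h replicate 2 or 3 (adjusted p of up to 0.142). The antisense gene Junos shares exonic bases with Jun, but stood at only 0.627 CPM in sham and 1.56 CPM at 24 h.

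Junb (ENSMUSG00000052837, chr8:84974484-84978718), whose protein often restrains Jun, was above sham at every time from 1 h on. Sham libraries held 19.3, 20.5 and 22.3 CPM, those of 10 min 55.8, 36.6 and 43.2 CPM and those of 1 h 241, 233 and 307 CPM. The level was 429, 235 and 216 CPM at 6 h, 73.5, 73.1 and 255 CPM at 24 h and 107, 115 and 101 CPM at 72 h. Every ligated library was above every sham library, while those of 1 h and 6 h overlapped. The rise was 12.6-fold at 1 h (3.65 ± 0.46 SE as log2, adjusted p = 0.00127 by edgeR), 14.1-fold at 6 h (6.64e-05), 6.45-fold at 24 h (0.000342) and 5.19-fold at 72 h (0.000259). Between 1 h and 6 h the fitted difference was 0.17 (edgeR adjusted p = 0.801), and it was -0.21 without 6 h replicate 1. The mean at 24 h was 134 CPM with replicate 3 and 73.3 CPM without it. Prdx2, on the other strand, shares exonic bases with Junb; its level was 330 CPM in sham and 189 CPM at 72 h.

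Jund (ENSMUSG00000071076, chr8:70698949-70700616), the Jun gene usually expressed in resting cells, had the smallest fold change of the called members at each time from 1 h on. It stood at 29.4, 33.2 and 32.1 CPM in sham, 40.8, 41.8 and 31.2 CPM at 10 min and 55.5, 64.2 and 84.2 CPM at 1 h. It was at 73.0, 42.0 and 55.6 CPM at 6 h, 44.4, 56.6 and 56.3 CPM at 24 h and 38.7, 40.6 and 48.2 CPM at 72 h. From 1 h on every library was above the sham libraries, but all neighbours in the order of levels overlapped and none of them was called apart. Jund was 2.15-fold above sham at 1 h (1.11 ± 0.19 SE as log2, adjusted p = 0.00845 by edgeR), 1.80-fold at 6 h (0.00288), 1.66-fold at 24 h (0.00436) and 1.35-fold at 72 h (0.0491). The 1 h call was lost without sham replicate 1 (0.0817), sham replicate 3 (0.0548) or 1 h replicate 3 (0.051). The 72 h call was lost in 7 of 15 alternatives, among them leaving out any 1 sham library or 72 h replicate 2 or 3 (adjusted p of up to 0.172).

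Atf3 (ENSMUSG00000026628, chr1:191170296-191218039) joined the early genes at 1 h and stayed high at 6 h. Its sham libraries held 2.98, 3.06 and 3.42 CPM, and those of 10 min, at 6.29, 4.49 and 2.85 CPM, overlapped them. The libraries of 1 h held 70.9, 83.0 and 122 CPM, those of 6 h 209, 60.0 and 73.9 CPM, those of 24 h 18.9, 18.3 and 37.0 CPM and those of 72 h 26.7, 25.8 and 26.7 CPM. The levels of 1 h and 6 h overlapped, as did those of 24 h and 72 h, with no overlap between these pairs. Atf3 rose 29.0-fold at 1 h (4.86 ± 0.52 SE as log2, adjusted p = 0.00036 by edgeR) and was 36.0-fold above sham at 6 h (2.17e-05), 7.78-fold at 24 h (0.000488) and 8.34-fold at 72 h (0.000108). From 1 h to 6 h the difference of 0.31 was not called (edgeR adjusted p = 0.625) and was -0.46 without 6 h replicate 1, which also took the 6 h mean from 114 to 67.0 CPM.

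Batf (ENSMUSG00000034266, chr12:85686669-85709087) was the only member with its highest level at 72 h. It was at 0.455, 0.778 and 0.888 CPM in sham, 0.560, 0.672 and 1.01 CPM at 10 min and 0.821, 0.533 and 0.758 CPM at 1 h, which correspond to 9 to 20 counts a library. It reached 3.40, 2.01 and 2.13 CPM at 6 h, 1.08, 2.05 and 2.99 CPM at 24 h and 5.08, 4.75 and 6.17 CPM at 72 h. The libraries from 6 h on were all above those of sham, 10 min and 1 h, and those of 72 h were above all others. Batf rose 3.49-fold at 6 h (1.80 ± 0.36 SE as log2, adjusted p = 0.00124 by edgeR), 2.83-fold at 24 h (0.00272) and 7.45-fold at 72 h (6.82e-07), and it rose again from 24 h to 72 h (log2 fold change 1.40, 0.00087). Over the same step the summed macrophage markers went from 564 to 631 CPM at 24 h to 3110 to 4070 CPM at 72 h, with 6 of 6 called above sham at 72 h and none at 0 in all libraries of a group. The fibroblast sum went from 519 to 706 CPM to 5520 to 6690 CPM. Of 4 lymphocyte markers tested, 3 were called above sham at 72 h, where 34.2% of all genes were called higher. The sum of all 6 lymphocyte markers was low throughout, at 1.91 to 2.22 CPM in sham and 3.96 to 5.06 CPM at 72 h. It was already at 3.67 to 4.02 CPM at 10 min and 3.14 to 5.71 CPM at 1 h, which overlap the 72 h values. The part of these cells in the Batf values was not tested.

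Between neighbouring times the members moved in different directions. From 10 min to 1 h 5 members rose (Fos, Fosb, Jun, Junb and Atf3), where 0.251% of all genes were called higher. The call of Junb was lost without any 1 of the 6 libraries (edgeR adjusted p of up to 0.159), that of Fos without 10 min replicate 2 (0.0707) or 3 (0.0744) and that of Fosb without 10 min replicate 3 (0.0655). From 1 h to 6 h Fosl1, Fosl2 and Batf rose while Fos, Fosb and Jun fell, where 14.5% of genes were called higher and 10% lower (2368 and 1635 genes; 1754 and 2085 with library totals). From 6 h to 24 h Fos, Fosb, Fosl2 and Atf3 fell, where 13.7% were called lower (2311 genes higher and 2230 lower; 6052 and 828 with library totals). These 4 calls were lost in the fit to the 2 groups alone, whose estimate of the spread came from those 6 libraries, and 7 members were called without 24 h replicate 3. From 24 h to 72 h Batf rose and Fosl1 fell, where 24.4% were called higher and 26.1% lower (3980 and 4251 genes; 7285 and 1651 with library totals).

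The make-up of each family was compared on the deposited FPKM values, which divide by gene length and so allow one gene to be set against another. In sham hearts Fosl1 held 45.9% ± 5.91 and Fosl2 39.4% ± 5.70 of the summed Fos-family FPKM (SD, n = 3), with 11.6% ± 2.79 for Fos and 3.04% ± 1.96 for Fosb. At 10 min the share of Fos was 49.0% ± 8.91 and at 1 h 78.5% ± 1.64, when Fosl1 and Fosl2 together were a minor part at 1.82% ± 0.327 and 5.35% ± 1.48. By 72 h Fosl2 led with 50.4% ± 2.85, followed by Fos with 36.1% ± 1.96. The share of Fos did not overlap that of sham at any time after ligation, and each exact permutation test (two-sided) gave p = 0.1, the smallest p that 3 libraries against 3 allow. The whole family summed to 5.79 ± 0.0793 FPKM in sham, 12.5 ± 2.51 at 10 min, 107 ± 24.5 at 1 h and 23.8 ± 4.06 at 72 h. These FPKM are scaled to library totals, without the TMM factors, which were 0.907 to 0.959 in sham and 1.36 to 1.43 at 72 h. Sums at 72 h therefore stand higher against sham than TMM-scaled levels would. The FPKM of Fosl1 implies a length of 1707 bases, shorter than the 2033 exonic bases of GENCODE M21, and its share depends on that length. In shares of counts, which are not divided by length, Fosl2 had the highest mean in sham (75.1% ± 4.89, against 15.6% ± 3.04 for Fosl1 and 5.44% ± 1.52 for Fos) and at every time but 1 h, when Fos held 56.2% ± 2.81. At 72 h these shares were 80.9% ± 1.47 for Fosl2 and 14.1% ± 1.27 for Fos, so that the order of the genes depends on the division by length.

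The Jun family was more even. Jun, Jund and Junb held 41.1% ± 1.47, 39.9% ± 1.72 and 19.0% ± 0.376 of its summed FPKM in sham (SD, n = 3). The Jun share at 1 h, 41.5% ± 1.39, overlapped that of sham, while Junb went to 43.0% ± 1.45 and Jund to 15.4% ± 1.21, both outside the range of the sham libraries. At 6 h Junb held 57.7% ± 3.84 and Jun 26.4% ± 2.41. For Junb at each of these times the exact permutation p was again 0.1. In shares of counts Jun rather than Junb had the higher mean at 1 h (51.5% ± 1.42 against 38.5% ± 1.38), and Jund held 10.0% ± 0.835. The family summed to 44.0 ± 4.27 FPKM in sham, 240 ± 42.1 at 1 h and 149 ± 8.07 at 72 h, and its sum exceeded the Fos sum in the means of all 6 groups. These sums, too, follow library totals. Jund, for one, had a mean of 17.5 FPKM in sham and 35.5 FPKM at 72 h, but was 1.35-fold above sham with TMM scaling.

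**Figure D3:**
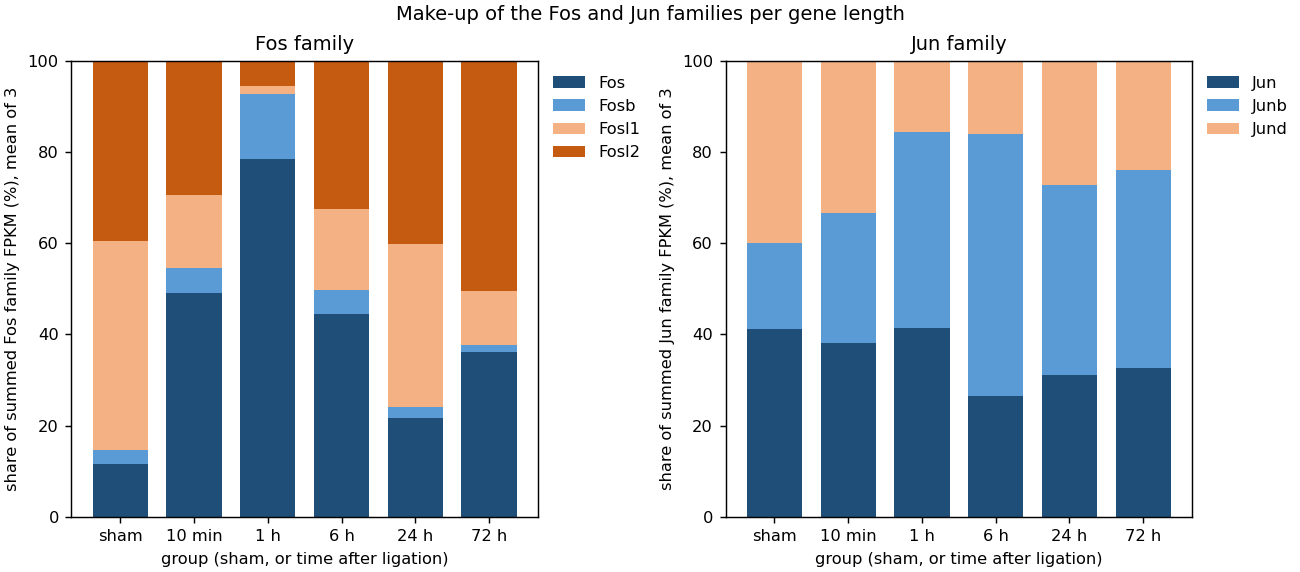
Mean share of each gene in the summed FPKM of the Fos family (left) and of the Jun family (right), in percent, for sham and each time after ligation (3 libraries a group; bars add to 100). Fos grows from 11.6% in sham to 78.5% at 1 h, and Junb from 19.0% in sham to 57.7% at 6 h.

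The libraries of 6 h and those of 24 h differed among themselves in the same way for nearly all members. At 6 h replicate 1 was the highest library for 9 of 9 members, between 1.31 times (Jund) and 3.55 times (Fosb) the middle library. At 24 h replicate 3 was the highest for 8 of 9, with Jund as the exception, and reached 3.47 times the middle library for Junb. The summed level of 6 neutrophil markers was highest in the same libraries: it was 718, 253 and 97.1 CPM at 6 h and 150, 35.8 and 626 CPM at 24 h, against 2.31 to 3.37 CPM in sham, where Ly6g was at 0 in all libraries. All 6 of these markers were called above sham at 6 h and 5 of 6 at 24 h. Other markers also set these libraries apart. The cardiomyocyte sum was lowest in them, at 47700, 52000 and 59100 CPM at 6 h and 36700, 37400 and 23900 CPM at 24 h. The endothelial sum was highest in them (1620 CPM at 6 h, 972 CPM at 24 h). So was the macrophage sum, at 339, 328 and 252 CPM at 6 h and 564, 588 and 631 CPM at 24 h. The low lymphocyte sum was highest there too (3.87 CPM at 6 h, 4.54 CPM at 24 h). The atrial sum was highest in 6 h replicate 1 (542 CPM) but lowest in 24 h replicate 3 (562 CPM). The same held for the mural sum (865 and 507 CPM) and the mesothelial sum (22.7 and 6.19 CPM). The fibroblast sum was highest in replicate 2 at both times. The part of these cells in the member values was not tested. Without 6 h replicate 1 all 9 members were still called at 6 h, and without 24 h replicate 3 the count at 24 h was 7.

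**Figure D4:**
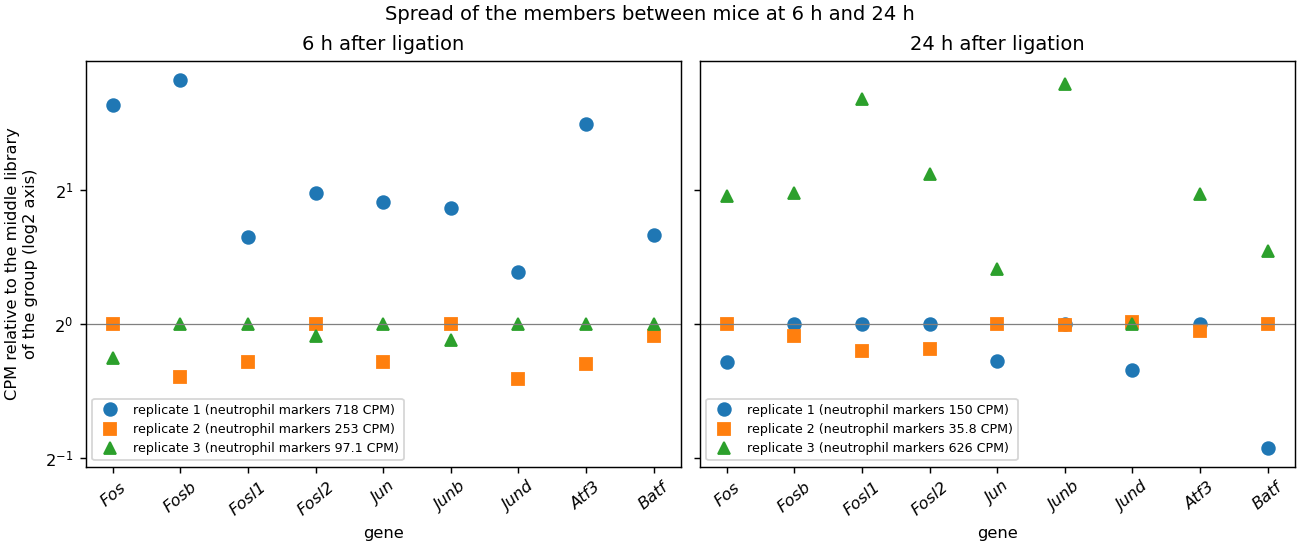
CPM of each member in the 3 libraries of 6 h (left) and 24 h (right) relative to the middle library of that group, on a log2 axis; the key gives the summed neutrophil markers of each library. Replicate 1 stands highest for all 9 genes at 6 h, and replicate 3 for 8 of 9 at 24 h.

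Other genes of the pathway are given for lists of textbook members. The first holds 11 other zipper partners, such as the small Maf proteins and JDP2, of which 10 were tested. Of all 16311 genes, 1144 at 10 min and 899 at 1 h had an unadjusted p under 0.05 in edgeR's test. Of the 10 partners edgeR called none at 10 min or 1 h, where 0 and 3 had an unadjusted p under 0.05. DESeq2 called 0 and 1 (Maff) of the partners at these times, and edgeR's fit to the 2 groups alone 0 and 2. By edgeR 5 rose at 6 h, 6 at 24 h and 3 at 72 h, with none lower, where 16.3%, 23.7% and 34.2% of all genes were called higher, so that the share at 72 h was near that of genes in general. The list's median log2 fold change at 24 h was 0.64, against 0.01 for all genes. Maf, a macrophage-associated factor, and Mafk, a small Maf protein, had the smallest p at 24 h. Maf rose from 19.6 ± 4.65 to 41.0 ± 3.51 CPM (1.07 ± 0.14 SE as log2, adjusted p = 1.81e-05 by edgeR) and Mafk from 59.5 ± 2.09 to 134 ± 39.6 CPM (1.17, SE 0.18, 8.75e-05; SD, n = 3). Of 11 ATF and CREB relatives, edgeR, DESeq2 and limma called none at 10 min or 1 h (0 and 2 had an unadjusted p under 0.05), and 6 rose at 6 h, 8 at 24 h and 7 at 72 h, when 1 fell. These counts stand against the same shares of all genes called higher, and the 8 called at 72 h in either direction against 66.4%. Atf4, the effector of the integrated stress response, stood at 65.1 ± 4.32 CPM in sham and 137 ± 45.9 CPM at 24 h (1.07 as log2, adjusted p = 8.19e-05 by edgeR). Creb3, a membrane-bound relative, was 0.65 higher at 24 h on the log2 scale (3.20e-05).

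The signalling genes upstream of AP-1 were called from 6 h on and in both directions, as were many genes in general. The list held 20 kinases of the mitogen-activated cascades, which phosphorylate Jun and Fos proteins or the factors at their promoters. None of these kinases was called at 10 min or 1 h by edgeR, DESeq2 or limma. An unadjusted p under 0.05 was seen for 1 at each time, against 1144 and 899 of all 16311 genes. The fit to the 2 groups alone called 1 kinase at 10 min. At 6 h and at 24 h 5 were higher and 3 lower, and at 72 h 5 were higher and 11 lower, where 28.4%, 43.8% and 66.4% of all genes were called in either direction. Map3k5, the stress kinase ASK1, fell from 47.8 ± 2.02 CPM in sham to 23.8 ± 1.45 CPM at 72 h (-1.01 as log2, adjusted p = 2.43e-07 by edgeR). Mapk10, which encodes the Jun kinase JNK3, fell from 15.6 ± 0.555 to 5.42 ± 1.01 CPM (-1.53, 3.34e-07). Over the same interval 7 of 7 cardiomyocyte markers were called lower; their part in these values was not tested. Of 7 genes for the serum response factor and its cofactors, none was called at 10 min or 1 h by these tools (1 and 0 had an unadjusted p under 0.05), 1 rose at 6 h and 1 at 24 h, and at 72 h 2 rose and 3 fell, against the same shares of all genes. Those that rose were Mrtfa (1.35 as log2, adjusted p = 2.49e-07 by edgeR) and Elk3 (0.58, 0.00016).

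Genes often cited as AP-1 targets were called by edgeR from 6 h on. Of 21 listed, 20 were tested and Mmp10 was near 0. At 10 min and 1 h edgeR called none, with list medians of 0.19 and 0.39 on the log2 scale. An unadjusted p under 0.05 was seen for 1 and 3 of the list, against 1144 and 899 of all 16311 genes. DESeq2 called 0 at 10 min and 2 at 1 h, Il6 and Ptgs2. Their differences from sham at 1 h were 5.76 ± 1.89 SE (edgeR adjusted p = 0.617) and 3.96 ± 0.96 SE (0.204) as log2. Both were near 0 in sham, at means of 0.0346 and 0.445 CPM, against 2.06 and 7.09 CPM at 1 h. At 1 h the fit to the 2 groups alone called 4 and limma on log2(FPKM + 0.1) called 1. At 6 h 16 had risen (median 3.92), at 24 h 19 (3.57) and at 72 h 17 (2.91), with none lower; of all genes 16.3%, 23.7% and 34.2% were called higher, with medians between -0.01 and 0.03. Timp1, a metalloproteinase inhibitor, rose from 1.69 ± 0.286 CPM in sham to 48.2 ± 11.4 CPM at 6 h and 174 ± 76.3 CPM at 24 h (at 24 h 6.68 ± 0.35 SE as log2, adjusted p = 2.18e-08 by edgeR). Mmp3, a matrix-degrading enzyme, went from 2.73 ± 0.646 to 14.7 ± 2.41 CPM at 24 h (2.42, SE 0.26, 2.71e-06; SD, n = 3). Such genes are also expressed by infiltrating cells. The summed neutrophil markers, at 2.31 to 3.37 CPM in sham, were above sham at every time. They were at 4.19 to 18.1 CPM at 10 min and 12.2 to 20.2 CPM at 1 h, when edgeR called 0 of the 6. The values of 6 h and 24 h are given above, and those of 72 h were 51.2 to 61.0 CPM. The summed macrophage markers, at 266 to 306 CPM in sham, overlapped sham at 6 h (252 to 339 CPM) and were above it at 24 h and 72 h. The 6 fibroblast markers summed to 593 to 616 CPM in sham, overlapped this at 6 h (524 to 648 CPM) and 24 h (519 to 706 CPM) and stood at 5520 to 6690 CPM at 72 h. The part of these cells in the counts of targets was not tested.

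**Figure D5:**
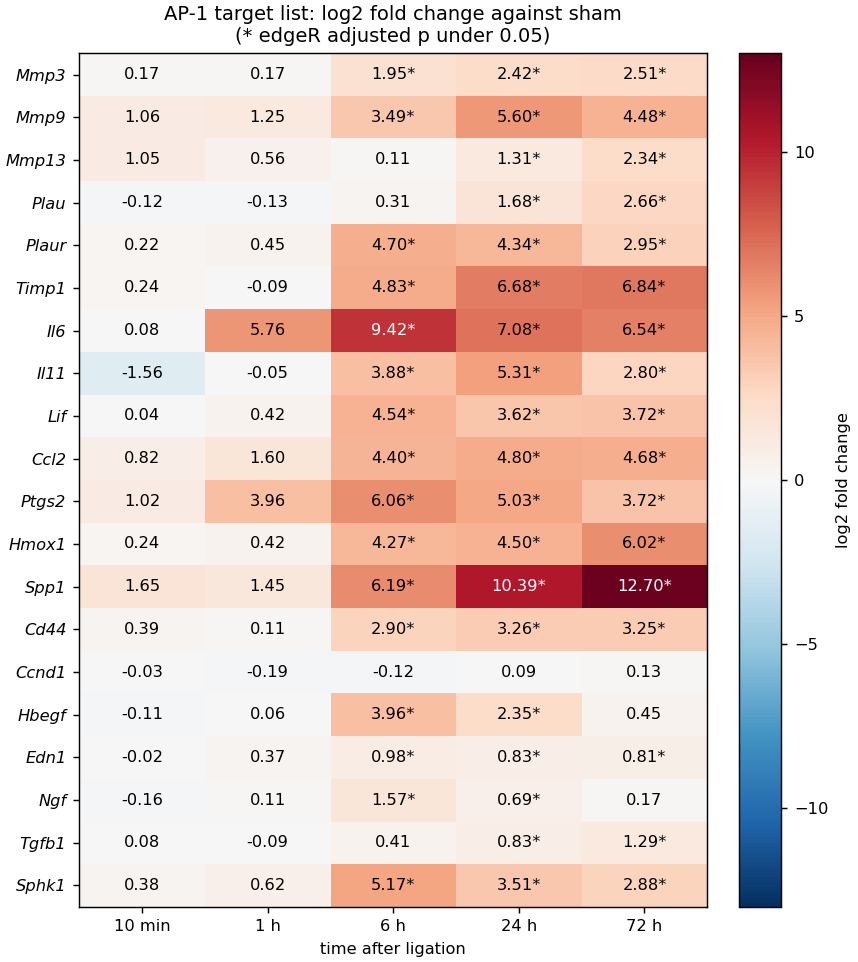
Log2 fold change against sham of 20 genes often cited as AP-1 targets (lines) at each time after ligation (columns), with asterisks for edgeR adjusted p under 0.05. No asterisk stands at 10 min or 1 h, 16 stand at 6 h, 19 at 24 h and 17 at 72 h.

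The genes whose course was most like that of each member were taken from 11643 genes by Pearson's r of log2 CPM over the 18 libraries, a description over libraries that share their groups. For Fos they were the early genes Egr1 (r = 0.974), Zfp36 (0.967) and Ier2 (0.948), and for Fosb Zfp36 (0.967), Egr1 (0.953) and Apold1 (0.952). Jun had Ier2 (0.969), Zfp36 (0.935) and Egr1 (0.932) as its nearest. Ccn1, a secreted matrix protein, was nearest to Junb (0.951), to Jund (0.915) and to Atf3 (0.953). Junb was followed by the chemokine gene Cxcl1 (0.934) and by Ptgs2 (0.919), Jund by Ier2 (0.876) and Btg2 (0.868), and Atf3 by Ier5 (0.935) and Nfkbiz (0.935). The later members had other neighbours. Fosl2 had the pentraxin gene Ptx3 (0.970), Arid5a (0.967) and Socs3 (0.953), and Fosl1 had Nolc1 (0.970), Eif5 (0.964) and Gtpbp4 (0.963), which serve ribosome assembly or translation. Batf had Ube2q1 (0.969), Bmp2k (0.968) and Rasa3 (0.968). Among the members themselves r was highest between Junb and Atf3 (0.97) and lowest between Fosb and Batf (-0.18).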

How the data were processed

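Counts per gene were deposited by the authors as raw read counts, with FPKM values beside them; per the submitters' processing notes reads were trimmed with cutadapt 1.18, aligned to mm10 with HISAT2 2.1.0 and counted with featureCounts. Strand setting, annotation and treatment of multi-mapping reads are not given in the sources used here. The 9 genes and all other gene lists were chosen with earlier results of these data known. Counts of 18 libraries in 6 groups of 3 were fitted with 1 mean per group in edgeR 4.0.16 (R 4.3.3; TMM scaling, filterByExpr, robust quasi-likelihood F test), which left 16311 of 30583 genes; SE is the log2 fold change divided by the root of F. The biological coefficient of variation was 0.149. The deposited FPKM were used for shares within a family and, as log2(FPKM + 1) and log2(FPKM + 0.1), with limma 3.58.1; counts and FPKM of 6 h replicates 2 and 3 fit each other's libraries, so no 6 h FPKM is given by replicate. Alternatives were DESeq2 1.42.0, other scalings and filters, fits to 2 groups alone, a replicate block and leaving out each library. The edgeR step was also run on simulated counts, in which a small set of genes was changed equally up and down. Such counts cannot test the scaling at 72 h, where 66.4% of genes were called.

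The named genes are the 9 members, for each member the 3 genes most like it by Pearson's r of log2 CPM (prior count 2; mean count of 50 or more; predicted genes and other members left out) and 2 genes per list, taken by smallest adjusted p in whichever comparison with sham had most calls. Ccdc85b, Junos, Prdx2 and Mmp10 are named outside this rule, for overlap with a member or for lack of a test, as are Maff, Il6 and Ptgs2, chosen after their values were seen. The lists of zipper partners and of targets each leave out 1 gene that is not reported here. Gene positions are those of GENCODE M21 (GRCm38), matched by Ensembl identifier, and promoter sequences are those of RefSeq on GRCm38.p6. No value in the 18 columns was left unmapped.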

Additional observations from a re-analysis of the deposited data

Results flagged for a closer look

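The levels of these genes differed between neighbouring times, by edgeR's test of the 2 groups (adjusted p under 0.05). Because both times share the same sham libraries, this equals the difference between their fold changes against sham. With no sham mice at the later times, time since surgery is part of each difference. From 10 min to 1 h the log2 fold change was higher by 3.79 for Fos, 4.51 for Fosb, 2.09 for Jun, 2.53 for Junb and 4.34 for Atf3. From 1 h to 6 h it changed by 2.54 for Fosl1, 1.93 for Fosl2 and 1.81 for Batf, and by -1.38 for Fos, -1.96 for Fosb and -0.90 for Jun. From 6 h to 24 h the change was -2.77 for Fos, -2.99 for Fosb, -1.20 for Fosl2 and -2.21 for Atf3. From 24 h to 72 h it was -2.24 for Fosl1 and 1.40 for Batf.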

How the results depend on the processing

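Of 47 member values called in a comparison with sham or with the time before, 34 were called under every alternative run for them, 13 lost the call at least once and 0 changed sign; the cause of the losses was not tested. The number of members called at 10 min, 0 with edgeR, was 1 with DESeq2, 5 in the fit to 2 groups and 1 with limma on log2(FPKM + 0.1). It was 3 in place of 6 for 6 h against 1 h and 0 in place of 4 for 24 h against 6 h in fits to 2 groups, and 1 in place of 2 for 72 h against 24 h with at least 10 counts in every library, a filter that removed Fosb and Batf. Leaving out 1 library at a time gave 2 to 4 members for 1 h against 10 min (2 without 10 min replicate 3, 3 without 10 min replicate 2) and 4 to 7 for 24 h against 6 h. Of 34 member values that were not called, 14 changed sign under at least 1 alternative. With library totals these were Fosl1 at 72 h against sham (0.11), Jund and Batf from 6 h to 24 h (0.20 and 0.02) and Jun, Fosl2, Jund and Junb from 24 h to 72 h (0.29, 0.17, 0.09 and 0.08). With limma, on log2(FPKM + 1) and log2(FPKM + 0.1) in turn, they were Fosl1 at 72 h against sham (0.06, 0.08), Jund from 6 h to 24 h (0.21, 0.21) and, from 24 h to 72 h, Jun (0.32, 0.33), Fosl2 (0.25, 0.27), Jund (0.09, 0.09) and Junb (0.33, 0.34). Batf at 1 h against sham and Fosl1 from 10 min to 1 h, both rounding to 0 in the main values, were 0.01 and 0.0 with RLE scaling, 0.01 and 0.0 with DESeq2 and 0.0 and 0.01 in fits to 2 groups; Batf was 0.02 with the replicate block. Leaving out 1 library at a time, Batf ranged from -0.19 to 0.28 at 10 min and from -0.23 to 0.20 at 1 h against sham. From 10 min to 1 h Batf ranged from -0.22 to 0.19 and Fosl1 from -0.06 to 0.03. From 1 h to 6 h Atf3 ranged from -0.46 to 0.62 and Junb from -0.21 to 0.35, both negative without 6 h replicate 1. From 6 h to 24 h Jund ranged from -0.29 to 0.11 and Batf from -0.65 to 0.02. From 24 h to 72 h Atf3 ranged from -0.08 to 0.50, Jun from -0.24 to 0.10, Fosl2 from -0.47 to 0.29 and Junb from -0.61 to 0.55, the last 3 positive without 24 h replicate 3. Family shares taken from counts in place of FPKM moved by more than 1 SD in 36 of 42 cases. When 1 library was left out 0 did so, but this check could not have come out otherwise. Dropping 1 of 3 values cannot move their mean by 1 SD of those 3 values.

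No clear pairing of the mice by replicate number was seen: over genes, the median correlation of same-numbered deviations was 0.01, 0.05 and 0.03 for the 3 numbers, and 6 of 18 libraries were closest to one with their own number. Such a check cannot exclude shared handling, and the numbers of 6 h replicates 2 and 3 are uncertain, because their counts and FPKM are crossed. With the replicate block 6 of 9 members were called at 72 h against sham, without Jund (edgeR adjusted p = 0.0655), and 5 from 1 h to 6 h, without Fos (0.0527), which says nothing of a weaker effect; the block changed no other member call.

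Counts of all genes called, which set the background, moved by over 1.5 times at 10 min (12; 0 to 5 without 1 library, 26 with no filter, 61 with DESeq2, 360 in the fit to 2 groups, 2 and 4 with limma), at 1 h (48; 93 with DESeq2, 190 in the fit to 2 groups, 31 without sham replicate 2) and at 6 h (4639; 2926 without 6 h replicate 1). They also moved for 1 h against 10 min (50; 127 with DESeq2, 244 in the fit to 2 groups, 6 to 29 without 1 of 4 libraries), 6 h against 1 h (4003; 2664 without 1 h replicate 2, 2481 without 6 h replicate 1) and 24 h against 6 h (4541; 6880 with library totals, 1024 in the fit to 2 groups). With 9 to 20 counts a library before 6 h, depth limits what can be seen of Batf, and 3 mice a group limit every comparison.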
